A study of Mus musculus with 4 samples.

Results

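*Rlbp1*, *Tyrp1*, *Mmd2*, *Mlc1*, *Bcan*, *Scg3*, *Cdh15*, *Cdh19* and *P4ha3* are 9 genes that were chosen by name for their high expression in satellite glial cells (SGC) of the mouse dorsal root ganglion (DRG), out of 33456 genes listed in the count files. Because that level chose them, their SGC level against other cells is given as a description without a test. The tests concern other glia, the response to nerve injury and the differences between libraries. The set is described as shared with other glia and was chosen with earlier results of these data known. Calls in other glia are thus not independent of the choice. Single cell RNA-seq was done on 4 libraries of DRG from C57BL/6 female mice. The 2 control libraries came from naïve, uninjured mice, and the 2 injury libraries from mice killed 3 days after a sciatic nerve crush. No transgene or allele is named for either group, and the same age range is given for all mice. The methods name isoflurane anesthesia and buprenorphine analgesia for surgery, and no sham operation for the controls. Effects of surgery and of these drugs cannot be told apart from those of the crush. The labels name L4 ganglia and the methods name L4 and L5. Ganglia were dissociated with enzymes and live cells were sorted before capture. Cells of several mice were pooled in each batch of single cells, and whether a batch is 1 library is not stated. In each condition 1 library has the number 2 in its label, and the unnumbered library is called replicate 1.

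SGC are flat glial cells that wrap the cell body of each sensory neuron, while Schwann cells wrap its axon. Both arise from the neural crest, and SGC share ion and water channel genes with the astrocytes of the brain. The 9 genes belong to unrelated families. *Rlbp1* encodes a retinaldehyde-binding protein known from Müller glia and the pigment epithelium of the eye, and *Tyrp1* a melanosomal protein of pigment cells. *Mmd2* encodes a membrane protein of the progestin and adipoQ receptor (PAQR) family, and *Mlc1* a membrane protein of astrocyte end-feet whose loss in humans causes a leukoencephalopathy with cysts. *Bcan* encodes brevican, a proteoglycan of the brain matrix, and *P4ha3* a catalytic subunit of collagen prolyl 4-hydroxylase. *Scg3* encodes a granin, a sorting protein of secretory granules in neurons and endocrine cells, while *Cdh15* and *Cdh19* encode cadherins, which are adhesion proteins of the cell surface.

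All 9 are protein-coding genes of the GRCm38 (mm10) assembly. *Rlbp1* lies at chr7:79374870-79387048 (minus strand) and *P4ha3* on the same chromosome at chr7:100285520-100319699 (plus strand). *Tyrp1* lies at chr4:80834123-80851719 (plus), *Mmd2* at chr5:142562358-142608800 (minus) and *Mlc1* at chr15:88955884-88979007 (minus). *Bcan* lies at chr3:87987531-88000230 (minus), *Scg3* at chr9:75643189-75684056 (minus), *Cdh15* at chr8:122847966-122867397 (plus) and *Cdh19* at chr1:110888326-110977584 (minus). The genes are not neighbours of each other. RefSeq promoter sequence was at hand for 8 of the 9 genes, and the 250 bases before the start site were searched for 4 short motifs on both strands. The core letters bound by SOX factors such as the glial factor SOX10, ACAAAG or on the opposite strand CTTTGT, stood in 3 of the 8 windows and in 16.5% of 32851 promoters of the same length. These 3 windows are shown because they hold that motif, and *Tyrp1* also holds the TCATGTG letters of the M-box known from pigment cell genes, which 3.25% of the promoters have. Each is written 5′ to 3′ on the strand of its gene with the last base next to the start site. Capitals mark the motif letters, which in *Rlbp1* include TTTATA, the TATA box core on the opposite strand (12.4% of promoters have TATAAA on either strand). The windows are chr4:80833963-80834212 for *Tyrp1*, chr7:79387028-79387277 for *Rlbp1* and chr9:75684057-75684306 for *Scg3*, in GRCm38.p6.
Tyrp1: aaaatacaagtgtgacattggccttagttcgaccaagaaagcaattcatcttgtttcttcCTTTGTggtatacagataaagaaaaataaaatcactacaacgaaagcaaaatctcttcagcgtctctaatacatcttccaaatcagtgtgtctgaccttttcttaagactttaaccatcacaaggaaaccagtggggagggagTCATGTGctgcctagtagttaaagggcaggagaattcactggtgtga
Rlbp1: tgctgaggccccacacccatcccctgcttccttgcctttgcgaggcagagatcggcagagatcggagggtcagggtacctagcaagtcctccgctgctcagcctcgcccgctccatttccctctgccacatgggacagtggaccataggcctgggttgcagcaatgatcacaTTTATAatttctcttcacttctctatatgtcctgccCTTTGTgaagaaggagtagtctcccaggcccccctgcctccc
Scg3: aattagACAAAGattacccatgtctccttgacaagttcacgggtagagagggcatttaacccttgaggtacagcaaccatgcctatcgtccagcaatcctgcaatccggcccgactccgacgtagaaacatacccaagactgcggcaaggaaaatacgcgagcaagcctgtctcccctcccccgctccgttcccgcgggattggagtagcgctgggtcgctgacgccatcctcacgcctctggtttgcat
The SOX letters lay at -190 to -185 in *Tyrp1*, at -42 to -37 in *Rlbp1* and at -244 to -239 in *Scg3*, counted back from the start site, so that their position was not shared. *Mlc1* held the RBPJ core of Notch target genes, searched as TGGGAA and on the opposite strand as TTCCCA, at -172 to -167, as 21.6% of promoters did. The windows of *Mmd2*, *Bcan*, *Cdh15* and *P4ha3* held none of these letters. No binding was measured, and a match is a description of the letters only.

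The files held 6975 barcodes, and 6095 cells remained within 600 to 15000 UMIs (unique molecular identifiers, 1 per captured RNA molecule), 500 to 4000 genes and under 10% mitochondrial UMIs. Cells were assigned to types by marker lists that contain none of the 9 genes, a cell needing at least 3 markers of a list and a lead of 2 over the next list. The SGC gate held 1521 cells, of which control replicate 1 gave 92, control replicate 2 gave 444, injury replicate 1 gave 708 and injury replicate 2 gave 277. All 11 SGC markers had UMIs in these cells, with a summed level of 10281 to 17971 CPM (UMIs of a gene per 1e+06 UMIs of the summed cells) per library, against 63.9 to 85.1 CPM for the 11 Schwann cell markers. The Schwann gate held 249 cells. Glial cells with *Scn7a*, a sodium channel gene, formed another glial set of 101 cells, 30 in control replicate 1, 70 in injury replicate 1, 1 in control replicate 2 and none in injury replicate 2. These *Scn7a* glia needed 1 UMI of *Scn7a*, 3 markers common to all glia, at most 3 SGC markers and at most 1 marker of any other list. A cell that met both this rule and the SGC gate was placed with the *Scn7a* glia, and such cells were not counted. The depth differed between libraries, and the median SGC had 2320.5 and 2950 UMIs in the libraries numbered 1 and 4318.5 and 5015 in those numbered 2.

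*Mmd2* was the most abundant of the 9 genes in SGC, followed by *Bcan*, and *Cdh15* was the least abundant. With 3′ counting each molecule gives 1 count whatever its length, so that CPM of different genes were compared directly. Throughout, the value of replicate 1 comes before that of replicate 2. *Mmd2* had 1061 and 1418 CPM in control and 1164 and 1380 CPM after injury (1256 ± 171, SD, n = 4 libraries). *Bcan* had 403 and 625 CPM in control and 341 and 413 CPM after injury (446 ± 124). The lowest *Mmd2* library lay above the highest *Bcan* library, and every *Bcan* library above every library of the other 7 genes. *Scg3* had 177 and 168 CPM in control and 268 and 184 CPM after injury (199 ± 46.5). *Cdh19* had 189 and 111 CPM in control and 148 and 149 CPM after injury (149 ± 32.1). *Tyrp1* had 53.5 and 172 CPM in control and 69.7 and 210 CPM after injury (126 ± 76.5). The ranges of these 3 genes overlapped, and *Tyrp1* had the widest of them, low in both libraries numbered 1 and high in both numbered 2.

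The remaining 4 genes stood at or below 133 CPM in every library. *Rlbp1* had 65.8 and 133 CPM in control and 106 and 87.7 CPM after injury (98.3 ± 28.7). *Mlc1* had 16.5 and 95.1 CPM in control and 61.6 and 95.8 CPM after injury (67.2 ± 37.4). *P4ha3* had 32.9 and 80.4 CPM in control and 34.3 and 67.0 CPM after injury (53.6 ± 23.8). *Cdh15* had 45.3 and 58.7 CPM in control and 31.2 and 39.5 CPM after injury (43.6 ± 11.6). These neighbours in the order did not differ beyond the spread between libraries. Control replicate 1 rested on 92 cells and few molecules, 4 UMIs of *Mlc1*, 8 of *P4ha3*, 11 of *Cdh15*, 13 of *Tyrp1* and 16 of *Rlbp1*. Its exact 95% Poisson interval for *Rlbp1* ran from 37.6 to 107 CPM and reached the value of injury replicate 1. Such intervals cover counting error only.

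**Figure D1:**
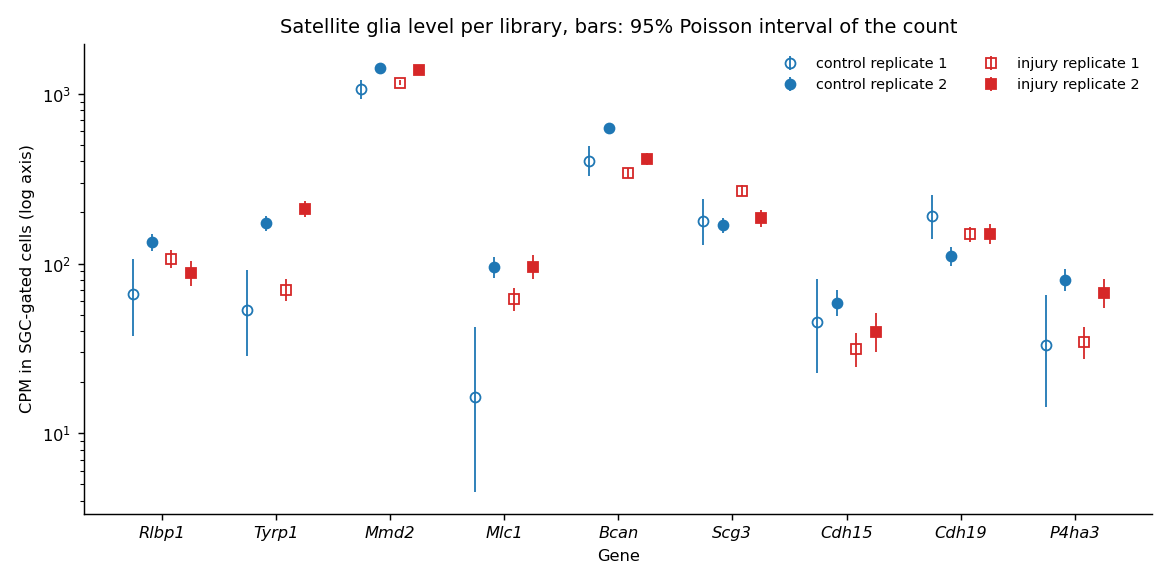
CPM of the 9 genes in SGC-gated cells (log axis), 1 point per library with the exact 95% Poisson interval of its count; filled and open symbols and colours separate the 4 libraries. *Mmd2* lies above 1000 CPM in every library, while *Tyrp1*, *Mlc1* and *P4ha3* are each lower in the libraries numbered 1 than in those numbered 2.

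The 9 genes were detected in very different shares of SGC. At least 1 UMI was present in 91.1% of the 1521 SGC for *Mmd2*, 64.0% for *Bcan*, 53.5% for *Scg3*, 40.0% for *Cdh19* and 30.4% for *Rlbp1*. The shares were 23.0% for *Tyrp1*, 22.3% for *Mlc1*, 19.8% for *P4ha3* and 10.7% for *Cdh15*. When each cell was thinned to 1000 UMIs, so that cells of unequal depth could be compared, they became 66.0% for *Mmd2*, 30.1% for *Bcan*, 18.7% for *Scg3*, 13.7% for *Cdh19* and 8.90% for *Rlbp1*. *Tyrp1* came to 9.24%, above *Rlbp1*, while *Mlc1* was at 6.14%, *P4ha3* at 4.86% and *Cdh15* at 2.97%. Thinned macrophages, which should lack these genes, had a UMI in 0.856% of cells for *Mmd2*, 0.487% for *Cdh19* and at most 0.355% for each of the others (median depth 4129 UMIs, against 3849 in SGC). This thinning left out 2 shallower cells each of the *Scn7a* glia and Schwann sets and no SGC. Every gene was found in SGC more often than in these macrophages, which follows from the choice of the genes and is no test. A median of 3 of the 9 genes was seen per SGC, 3.62% of SGC had none, and 29.2% had 5 or more. The share with 5 or more was 6.52% and 18.5% in the libraries numbered 1 and 38.3% and 49.5% in the deeper libraries numbered 2.

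**Figure D2:**
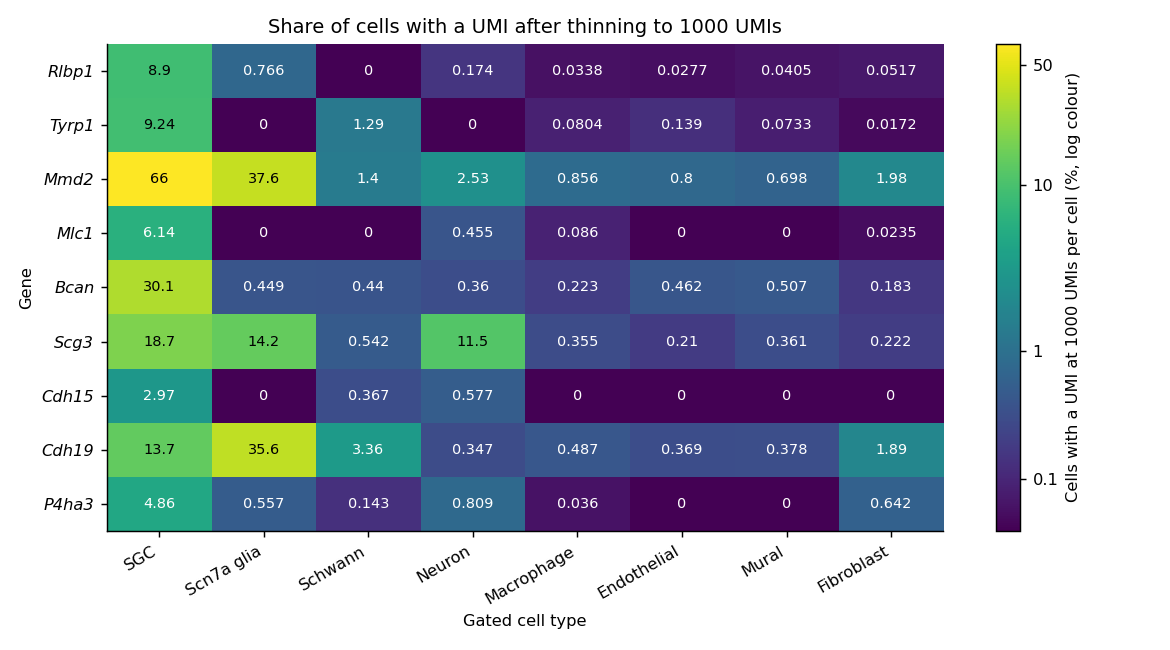
Share of cells with at least 1 UMI of each gene (rows) in each gated cell type (columns), in percent after thinning every cell to 1000 UMIs, on a log colour scale. The SGC column runs from 2.97% (*Cdh15*) to 66.0% (*Mmd2*). The *Scn7a* glia column is high for *Mmd2* (37.6%), *Cdh19* (35.6%) and *Scg3* (14.2%), and the neuron column for *Scg3* (11.5%).

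Among the kept cells, SGC held most of the UMIs of each gene, with the lowest share for *Cdh19*. The share was 95.7% for *Mlc1*, 95.1% for *Rlbp1*, 94.5% for *Bcan*, 93.2% for both *Tyrp1* and *Cdh15*, and 91.7% for *Mmd2*. It was 85.5% for *P4ha3*, 85.1% for *Scg3* and 67.6% for *Cdh19*. Among the non-glial types, fibroblasts had 24.0 ± 10.2 CPM of *Mmd2* and 19.5 ± 4.59 CPM of *Cdh19* (SD, n = 4). *Cdh15* had no UMI in any of the 3432 non-glial cells. Erythroid cells had 33.0 CPM of *Cdh19* from all libraries pooled, which rests on 8 UMIs.

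*Scg3*, the granin, was also a neuronal gene in these data. Within the limits on cells the 68 neuron-gated cells had 103 ± 7.31 CPM of *Scg3* (SD, n = 2 libraries with at least 10 cells), and 61.8% of them had a UMI. The upper limits on UMIs and genes removed most neurons, as 346 barcodes passed the neuron gate when no limit was set, with a median of 20607 UMIs. In the 278 neuron-gated barcodes outside the limits *Scg3* was at 241 CPM, and 86.0% of them had a UMI. These barcodes carried 2166 of the 4220 *Scg3* UMIs of the files (51.3%), so that over all barcodes SGC did not hold most of them. Of the other members *P4ha3* had 20.5% of its UMIs there and *Cdh15* 92 of 461, and the remaining 6 had at most 6.01%. Over all neuron-gated barcodes, with or without the limits, *Scg3* had 451 and 236 CPM in control and 160 and 183 CPM after injury. The SGC within the limits had 177 and 168 CPM in control and 268 and 184 CPM after injury. Neurons were thus higher in both control libraries and not in the injury libraries.

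**Figure D3:**
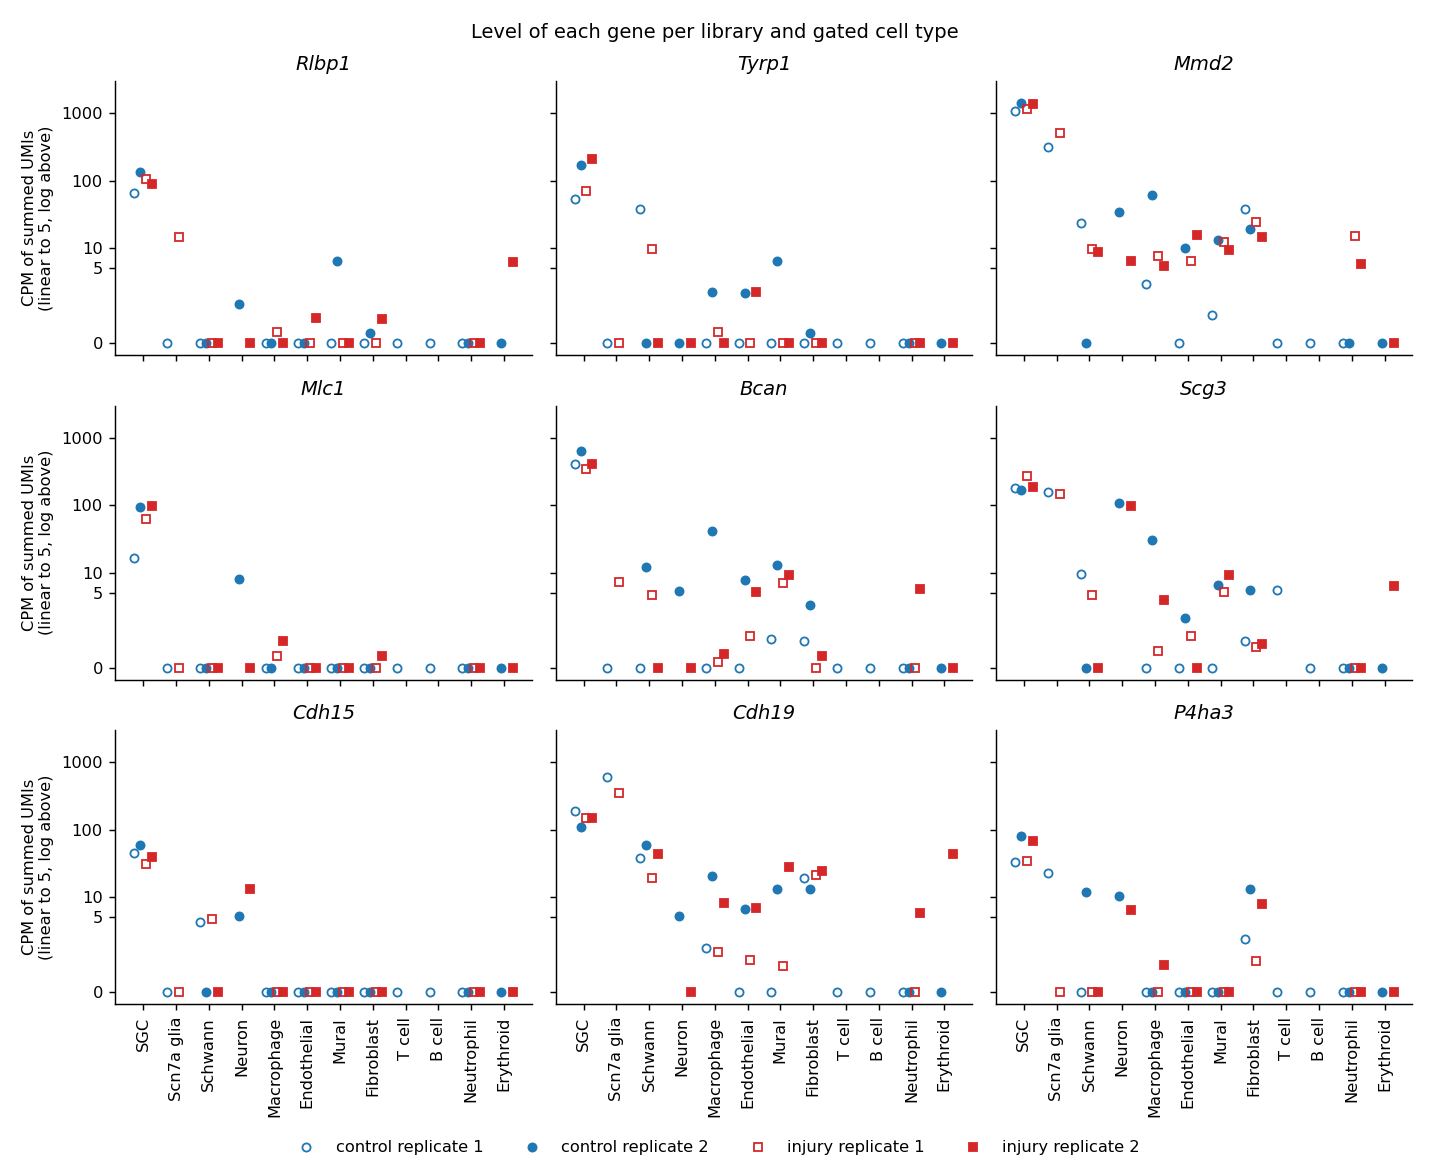
CPM of each gene (1 panel per gene) by gated cell type, 1 point per library with at least 10 cells of the type; the axis is linear up to 5 CPM and logarithmic above. Only cells within the limits are shown, which leaves out most neuron-gated barcodes. Among these cells the highest values of 8 genes are in SGC, and for *Cdh19* the 2 *Scn7a* glia libraries (611 and 344 CPM) lie above all 4 SGC libraries.

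The comparison with other glia asks which of the 9 genes those cells also carried. In *Scn7a* glia 3 of the 9 genes were abundant. *Cdh19* had 611 CPM in control replicate 1 and 344 CPM in injury replicate 1, from 75 UMIs in 54 of the 101 cells. *Mmd2* had 317 and 505 CPM, from 84 UMIs in 56 cells. *Scg3* had 159 and 146 CPM, from 27 UMIs in 25 cells. *Cdh19* was higher in both of these libraries than in any SGC library, *Mmd2* was lower than in any SGC library, and *Scg3* was below all 4 SGC libraries, the lowest of which had 168 CPM. The other 6 genes were at the limit of detection, with 2 UMIs of *Rlbp1* in 1 cell, 1 UMI each of *Bcan* and *P4ha3*, and none of *Tyrp1*, *Mlc1* or *Cdh15*. With 184575 UMIs in all, a count of 0 allows up to 16.3 CPM. *Mlc1* at the mean SGC level of 67.2 CPM over 4 libraries would lie above that limit, as would *Tyrp1* at 126 CPM and *Cdh15* at 43.6 CPM. All but 1 of the *Scn7a* glia came from the libraries numbered 1, where SGC had lower levels. These were 16.5 and 61.6 CPM for *Mlc1*, 53.5 and 69.7 CPM for *Tyrp1* and 45.3 and 31.2 CPM for *Cdh15*. *Mlc1* in SGC of control replicate 1 was thus itself close to the limit.

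Against the 8 non-glial types (macrophages, endothelial, mural, T, B and erythroid cells, fibroblasts and neutrophils), 3 of the 9 genes were called higher in *Scn7a* glia, where 11% of 9384 genes were called higher. The low-count filter ran over all types, SGC included. When SGC were left out of the filter and the fit, a setting chosen after the data were seen, *Mmd2*, *Scg3* and *Cdh19* were the 3 members that passed it, and they were called again. That fit tested 8446 genes, and the share of them called is not given here, so these repeated calls are a description. A gene was called where its adjusted p was under 0.05 and its log2 fold change was 2 or larger. The log2 fold change was 6.72 (SE 0.53) for *Cdh19*, 7.15 (SE 0.72) for *Mmd2* and 5.86 (SE 0.85) for *Scg3*, with adjusted p of 4.58e-13, 3.08e-10 and 1.58e-06 (Benjamini-Hochberg adjustment, edgeR's quasi-likelihood test). The fit averages the types on the log scale, so that types without a single UMI enlarge it. Of pooled UMIs the ratio was 39.5 for *Cdh19* (95% exact interval 29.5 to 52.4), 32.8 for *Mmd2* (25.2 to 42.5) and 49.4 for *Scg3* (29.4 to 81.6). These intervals cover counting error only, not the spread between cells and libraries. All 3 were also called against fibroblasts alone, a comparison chosen after the data were seen, at log2 fold changes of 4.16, 3.91 and 5.35. The numbers of all genes called in that comparison are given with the alternatives below. Against Schwann cells directly, where 2.86% of genes were called higher, the same 3 genes were called, with log2 fold changes of 5.06 (SE 0.67) for *Mmd2*, 4.76 (SE 0.91) for *Scg3* and 3.25 (SE 0.44) for *Cdh19* (edgeR's quasi-likelihood test, adjusted p = 7.54e-07, 0.000367 and 9.31e-07).

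SGC markers were present in *Scn7a* glia at a lower level, with 9 of 11 markers detected, *Hes5* and *Pde10a* at 0, and a summed level of 1698 and 2356 CPM against 10281 to 17971 in SGC and 168 to 342 in Schwann cells. Their part in the levels of *Mmd2*, *Scg3* and *Cdh19* was not tested.

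Schwann cells carried little of the 9 genes, with a summed level of 78.5 CPM against 2521 CPM in SGC and 1029 CPM in *Scn7a* glia. *Cdh19* was the most abundant. It had 37.5 and 60.0 CPM in control and 19.4 and 43.5 CPM after injury (40.1 ± 16.8, SD, n = 4), from 27 UMIs in 22 cells. All 4 libraries were below the lowest SGC library, which had 111 CPM. *Tyrp1* had 37.5 and 0 CPM in control and 9.72 and 0 CPM after injury, from 10 UMIs in 4 cells. It was thus not detected in either library numbered 2. These held 37 and 21 Schwann cells. *Mmd2* had 8 UMIs (11.4 CPM), *Bcan* and *Scg3* 3 each, *Cdh15* and *P4ha3* 2 each, and *Rlbp1* and *Mlc1* none, which allows up to 4.28 CPM.

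Against the non-glial types *Cdh19* was called higher in Schwann cells, where 15.5% of genes were, with a log2 fold change of 3.47 (SE 0.79; edgeR's quasi-likelihood test, adjusted p = 0.000615). It was called again when SGC were left out of the filter and the fit, at 3.41 (SE 0.76; edgeR's quasi-likelihood test, adjusted p = 0.000467). The share of all genes called in that fit is not given here. Without control replicate 1 *Cdh19* was at 1.90 (adjusted p = 0.0131) and against fibroblasts alone at 0.90 (adjusted p = 0.121) in the same test, and was called in neither. *Tyrp1* and *Cdh15* passed the low-count filter only while SGC were in it, so that their fitted values are not used. *Cdh15* had 2 UMIs in Schwann cells against none in the 3432 non-glial cells. The pooled ratio to the non-glial types was 3.74 for *Cdh19* (95% exact interval 2.39 to 5.66), 21.2 for *Tyrp1* (7.92 to 56.8) and 0.824 for *Mmd2* (0.351 to 1.65). Here too the intervals cover counting error only, not the spread between cells and libraries. The *Tyrp1* UMIs lay in 4 of the 249 Schwann cells, with 8 UMIs in control replicate 1 and 2 in injury replicate 1. The *Tyrp1* ratio is therefore a description only. At 1000 UMIs per cell, *Cdh19* was seen in 3.36% of Schwann cells and 1.89% of fibroblasts, and *Mmd2* in 1.40% and 1.98%.

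The comparison of injury with control within SGC asks whether the crush changed the 9 genes. None of them was called, and none of the 9166 genes tested was (0% in either direction), with 106 genes (1.16%) at an unadjusted p under 0.05 and 1 gene called by DESeq2. This fit had no term for the library number, so that differences between the numbers enter its SE. With the number as a block some genes were called higher but no member, as given with the alternatives below. *Scg3* had the largest rise in fitted value, with a log2 fold change of 0.47 (SE 0.26), and *Cdh15* the largest fall, at -0.58 (SE 0.30), with adjusted p of 1.00 for both (edgeR's quasi-likelihood test) and unadjusted p of 0.115 and 0.0951. These were also the members whose control and injury libraries did not overlap, 2 of 9, where 25% of all genes tested did not overlap. The exact permutation test of 2 libraries against 2 cannot go below 0.33. *Bcan* was at -0.40 (SE 0.31), *P4ha3* at -0.32 (SE 0.48) and *Rlbp1* at -0.10 (SE 0.35). *Mlc1* was at 0.23 (SE 0.57), *Tyrp1* at 0.20 (SE 0.64), *Cdh19* at 0.15 (SE 0.27) and *Mmd2* at 0.10 (SE 0.29), all with adjusted p of 1.00. The median over the 9 genes was 0.10, against 0.0047 over all genes tested. In Schwann cells 2765 genes passed the filter on low counts and none of the 9 did, so that injury was not tested for them there, and no gene was called (0% in either direction, 46 genes or 1.66% at an unadjusted p under 0.05, 1 gene called by DESeq2). *Cdh19* had 8 and 10 UMIs in the control Schwann cells and 4 and 5 after injury.

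The library number was tested within SGC in the same way. Here too the exact permutation test of 2 libraries against 2 cannot go below 0.33. With 4 libraries and both terms in the fit, the p-values rest largely on a spread shared between genes. With condition in the fit, *Tyrp1* was higher in the libraries numbered 2 by a log2 fold change of 1.69 (SE 0.23; edgeR's quasi-likelihood test, adjusted p = 5.65e-06), *P4ha3* by 1.13 (SE 0.27; adjusted p = 0.0117) and *Mlc1* by 1.11 (SE 0.28; adjusted p = 0.0171). These 3 of 9 members passed the adjusted p alone, as 2.52% of genes did in that direction, and none reached the log2 fold change of 2 that a call needs (0.458% of genes). *Bcan* was at 0.53 (SE 0.21), *Cdh15* at 0.43 (SE 0.29), *Mmd2* at 0.43 (SE 0.23) and *Rlbp1* at 0.26 (SE 0.25), while *Scg3* and *Cdh19* were at -0.26 (SE 0.21) and -0.23 (SE 0.21). In CPM, 5 of the 9 genes had no overlap between the numbers, against 48.6% of all genes tested. The libraries numbered 2 were deeper per SGC, and the labels do not say what the number stands for. Depth and number cannot be told apart.

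**Figure D4:**
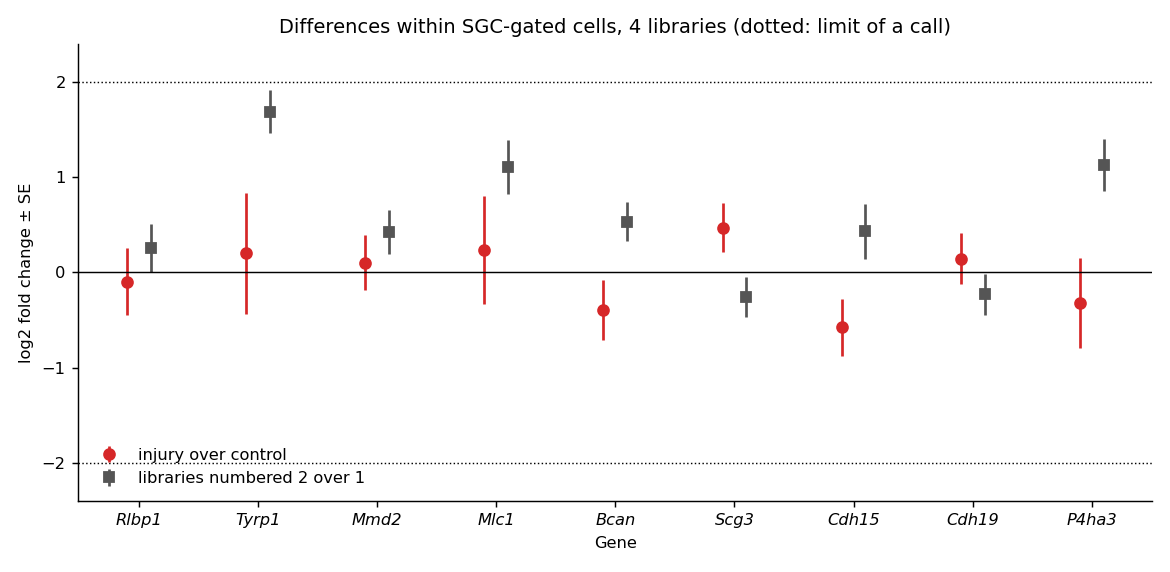
Fitted log2 fold change ± SE of each gene within SGC-gated cells over 4 libraries, for injury against control and for libraries numbered 2 against those numbered 1; dotted lines mark the fold that a call needs. The injury values lie between -0.58 and 0.47, and *Tyrp1* (1.69), *P4ha3* (1.13) and *Mlc1* (1.11) stand out for the library number.

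SGC fell mainly into 2 clusters when the cells were clustered without the 9 genes, and the members split between them. The cluster of 820 SGC with 139 CPM of *Hes5*, a Notch target gene, is called *Hes5*-high, and the cluster of 621 SGC with 0.557 CPM *Hes5*-low. The names are labels only, as other genes differed too (libraries pooled). *Fabp7* was at 15987 CPM in *Hes5*-high and 6418 CPM in *Hes5*-low SGC, and *Apoe* at 103301 and 50093 CPM. *Ednrb*, at 738 and 1245 CPM, and *Pde10a*, at 39.1 and 137 CPM, went the other way. The values are descriptions, since the clusters were made from the same cells. The median depth was 4858 UMIs in *Hes5*-high and 2679 in *Hes5*-low SGC, and its part in the levels was not tested. *Cdh15* had the largest ratio, with 62.6 CPM in *Hes5*-high against 2.79 CPM in *Hes5*-low SGC (libraries pooled). In control replicate 1 its 11 UMIs lay in 3 of the 13 *Hes5*-high cells (211 CPM). *Mlc1* was at 108 against 19.0 CPM, *Tyrp1* at 178 against 54.6 CPM and *P4ha3* at 72.5 against 27.3 CPM. *Bcan* was at 567 against 243 CPM, *Rlbp1* at 134 against 60.8 CPM and *Mmd2* at 1499 against 900 CPM. *Scg3* was at 220 and 217 CPM with the libraries pooled, but each library had less of it in *Hes5*-low cells, with 230, 175, 304 and 198 CPM against 158, 146, 251 and 165 CPM, control libraries first. *Cdh19* went the other way, at 103 CPM in *Hes5*-high and 209 CPM in *Hes5*-low SGC. The order of *Cdh19* held in all 4 libraries, with 95.9, 97.9, 90.4 and 123 CPM in *Hes5*-high and 187, 183, 197 and 341 CPM in *Hes5*-low cells.

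The clusters were unevenly spread over the libraries. *Hes5*-high cells made up 14.1% and 32.1% of the SGC of control and injury replicate 1, and 80.0% and 81.2% in the libraries numbered 2. Within *Hes5*-high cells *Tyrp1* had 38.4 and 96.0 CPM in the libraries numbered 1 and 195 and 245 CPM in those numbered 2, so that the numbers stayed apart, although control replicate 1 had only 13 such cells and 2 *Tyrp1* UMIs. *Mlc1* had 57.6 and 102 CPM in the libraries numbered 1 and 112 and 113 CPM in those numbered 2, and *P4ha3* 76.8 and 42.8 CPM against 91.0 and 76.8 CPM, where control replicate 1 rested on 3 and 4 UMIs. For *P4ha3* the numbers thus nearly touched in these cells, at 76.76 CPM in control replicate 1 and 76.81 CPM in injury replicate 2. Over all SGC the mean of the libraries numbered 2 was 3.10 times that of the others for *Tyrp1*, 2.45 times for *Mlc1* and 2.19 times for *P4ha3*. *Tyrp1* was also the only member whose order between the clusters turned in a library, control replicate 1. Within *Hes5*-low cells *Tyrp1* had 64.2 and 49.5 CPM in the libraries numbered 1 and 86.0 and 33.0 CPM in those numbered 2, and the numbers overlapped. *Bcan* was lower after injury in both clusters. In *Hes5*-high cells it had 672 and 682 CPM in control against 500 and 466 CPM after injury. In *Hes5*-low cells it had 368 and 377 CPM against 200 and 198 CPM. Over all SGC its control and injury libraries overlapped. *Mmd2* and *Cdh15* were also lower in both injury libraries in *Hes5*-high cells, and *Tyrp1* in *Hes5*-low cells. *Mlc1*, *Scg3* and *Cdh19* were higher in both injury libraries in *Hes5*-low cells. Over all SGC, 25% of all genes tested separate the conditions in this way. How many do so within a cluster was not counted, so these separations are descriptions only. Neither cluster alone passed the test for *Bcan*, at -0.39 and -0.87 on the log2 scale (edgeR's quasi-likelihood test, adjusted p = 1.00 in both; chosen after the data were seen).

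**Figure D5:**
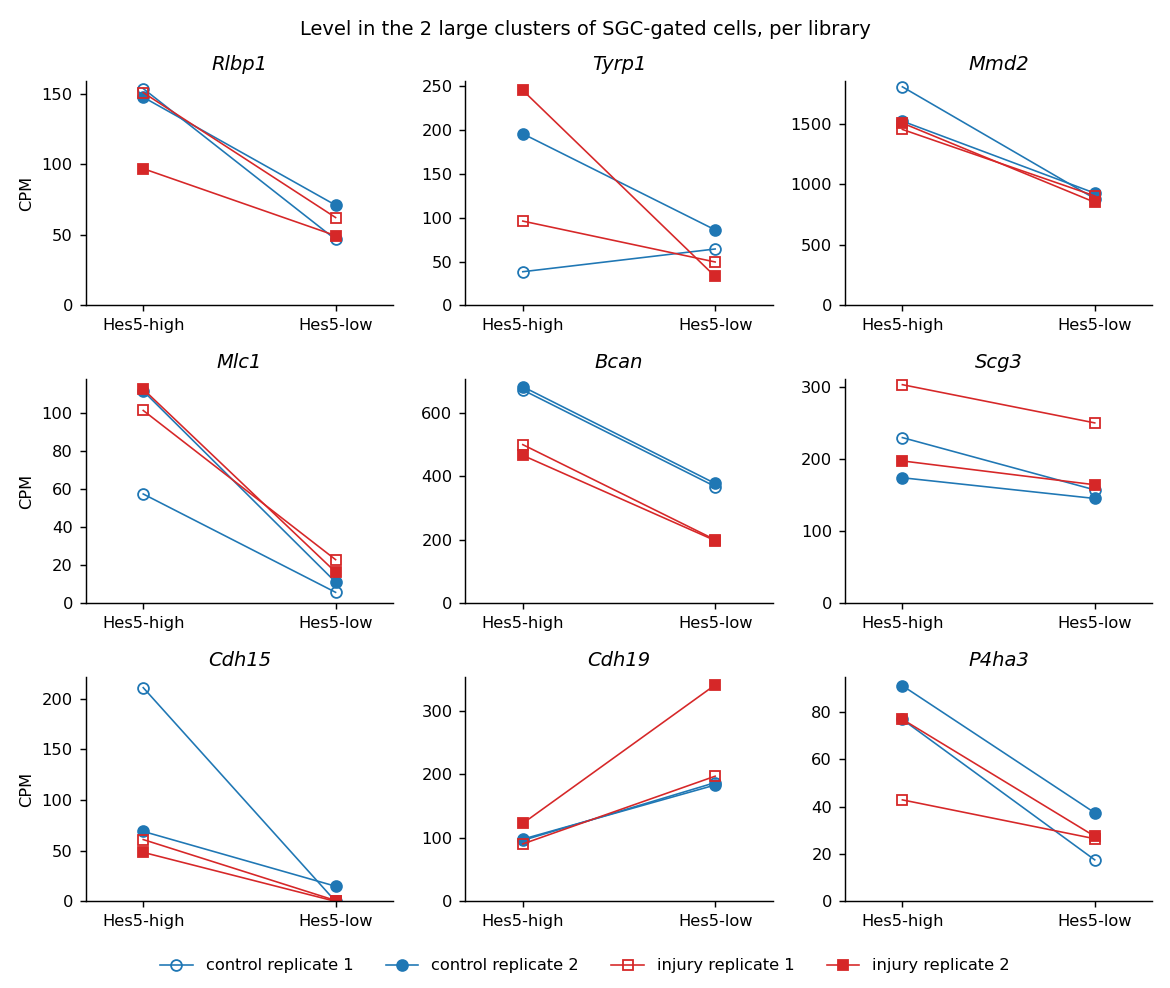
CPM of each gene in *Hes5*-high and *Hes5*-low SGC, 1 line per library. *Cdh15* drops to at most 14.9 CPM in *Hes5*-low cells of every library, and *Cdh19* rises in every library. The *Bcan* lines of the 2 injury libraries lie below those of the 2 control libraries in both clusters. Several other genes separate the conditions in a single cluster. How many of all genes do so was not counted.

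Outside the gate markers, the genes whose profile over 36 sums of type and library was most like that of the 9 together were *Kcnj16* (Pearson r = 0.935) and *Aqp4* (0.927). They are a potassium and a water channel gene. *Nfe2l3*, *Il25*, *Ncam2*, *Cyp4f15*, *Nkain4* and *Megf10* followed (0.909 to 0.916). Gate markers were among the 10682 genes ranked but were left out of this list, and they were kept in the search by member. The sums share libraries, and the values describe likeness only. *Aqp4* had 41.1 ± 12.7 CPM in SGC (SD, n = 4) and none in Schwann cells or *Scn7a* glia. By member the nearest gene was *Kcnj16* for *Mlc1* (r = 0.994), *Il25* for *Tyrp1* (0.973), *Nfe2l3* for *Cdh15* (0.957), *Aqp4* for *Rlbp1* (0.951) and the gate marker *Hes5* for *Bcan* (0.942). For *Scg3* it was *Pcdh10* (0.941), for *Cdh19* *Lgi4* (0.937), for *Mmd2* *Lgr5* (0.918) and for *P4ha3* *Ptgfrn* (0.877). *Cdh19* stood farthest from the rest, down to r = 0.469 with *Cdh15*.

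The pathways and families of the 9 genes were also followed, each as a list without its member and without markers used for gating. The lists were chosen with earlier results of these data known, and SGC were part of the low-count filter. The counts of calls are therefore descriptions and cannot test whether a list is enriched in SGC. In SGC against the non-glial types 18.5% of 9384 genes were called higher and 1.25% lower, and the median log2 fold change was 0.47. Of the 10 tested partners and neighbours of *Mlc1*, 9 were called higher (median 4.60), among them the sodium pump subunits *Atp1b2* (318 ± 60.6 CPM in SGC, SD, n = 4) at 5.81 and *Atp1b1* at 2.51. Other glia shared this, as 7 of these 10 genes were called higher in Schwann cells (median 4.93) and 5 in *Scn7a* glia (median 3.54). *Hepacam*, which encodes the binding partner of MLC1 and was picked after its value was seen, had 64.2 ± 24.6 CPM in SGC and 62.2 ± 11.3 CPM in Schwann cells, where *Mlc1* had no UMI. Of 15 astrocyte genes, 9 were called higher (median 3.23), including *Gpr37l1* at 8.20, *Acsbg1* at 7.81 and *Ndrg2* at 5.28, whereas *Cst3*, the most abundant of them, was at 1.77 and not called.

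Among adhesion and matrix genes, 5 of 9 tested cadherins and catenins were called higher (median 3.30), namely *Cdh1* at 6.55, *Cdh11* at 5.25, *Cdh2* at 4.15, *Ctnna1* at 3.45 and *Ctnnd1* at 3.30, while *Ctnnb1* was at 1.41. Of 4 tested lecticans, link and related matrix genes, *Cspg5* (6.58) and *Cspg4* (3.25) were called, and *Vcan*, a lectican relative of *Bcan*, was at 0.84 with 0.933 ± 0.799 CPM in SGC. *Ncan*, another lectican, had 0 and 21 UMIs in control and 6 and 9 after injury in SGC, and did not pass the low-count filter of this comparison. It had no UMI in Schwann cells, *Scn7a* glia or the non-glial types. The hydroxylase list holds collagen enzymes together with family relatives. Of its 9 tested genes only *P4htm* (4.19), listed as a family relative, was called, so this call says nothing on collagen enzymes. The direct relatives of *P4ha3* were *P4ha1* at 0.63 and *P4ha2* at 2.85, which had 39.1 ± 7.55 and 15.3 ± 14.8 CPM in SGC and 76.0 ± 5.98 and 53.3 ± 4.11 CPM in fibroblasts.

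Retinoid genes gave 5 calls of 13 (median 1.21). They included *Rdh5*, a retinol dehydrogenase (213 ± 66.0 CPM in SGC), at 6.36, the binding proteins *Crabp1* at 6.78 and *Crabp2* at 3.89, and *Rdh10* at 2.91. Pigment cell genes gave 3 calls of 4, *Kit* at 4.99, *Gpnmb* at 5.55 and *Slc24a5* at 2.15, with *Mitf* at 2.36 not called. *Tyr* and *Dct*, the pigment enzymes related to *Tyrp1*, had too few counts to be tested, with 0 CPM and 1.03 ± 2.06 CPM in SGC. PAQR genes gave 2 calls of 8, *Paqr6* at 7.54 and *Paqr4* at 3.53, whereas *Mmd*, the direct relative of *Mmd2*, had 9.52 ± 3.25 CPM in SGC and was not called. *Paqr6* was spread over all glia, with 471 ± 34.7 CPM in SGC and 377 ± 39.9 CPM in Schwann cells. Of 8 granin and prohormone genes 3 were called, *Scg5* at 4.41, *Cpe* at 2.66 and *Pcsk1n* at 2.30, while *Pam* was at 1.54 and *Gnas* at 0.11. No gene of any of the 9 lists was called lower in SGC. All these calls used the quasi-likelihood test of edgeR and a Benjamini-Hochberg adjustment, and 39 listed genes were called in all, against 30 by DESeq2. Schwann cells, where 15.5% of genes were called higher, had more calls than SGC for PAQR (3 of 8), granin and prohormone genes (4 of 8) and the hydroxylase list (2 of 9). They had fewer for astrocyte (5 of 15), cadherin and catenin (3 of 9), retinoid (2 of 13), pigment cell (1 of 4) and lectican-related genes (0 of 4). Under injury within SGC no listed gene was called in either direction. *Gfap*, an intermediate filament gene of astrocytes named after its values were seen, had 0 and 1 UMIs in the control SGC and 68 and 12 after injury, or 0 and 0.473 CPM against 26.5 and 8.04 CPM. Its fitted log2 fold change of 5.19 (SE 1.11; edgeR's quasi-likelihood test, adjusted p = 1.00) was not called, and with control at or near 0 it depends on the prior count.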

How the data were processed

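The files hold raw UMI counts per gene and barcode, deposited by the authors for 4 libraries (10x 3′ chemistry, Cell Ranger, mm10; the annotation release is not given in the sources used here). The authors' later steps in Partek are not in the files. Cell limits followed the methods of the study. No doublet caller was run, cells with too few markers or too small a lead over the next list stayed ungated (724 cells), so that gated cells can carry markers of other types, and 20 barcodes occurred in more than 1 library (13 of them kept). Raw UMIs were summed per library and type where at least 10 cells were present, and tested with edgeR 4.0.16 (TMM scaling, low-count filter, quasi-likelihood test, Benjamini-Hochberg adjustment over all genes tested), after a test on simulated data. DESeq2 1.42.0 was an alternative. The design calls the samples biological replicates. Cells were clustered with scanpy 1.11.5 (Leiden, 2000 variable genes, 30 components, 15 neighbours, resolution 1), members left out. Thinned shares are the expected share at 1000 UMIs. Positions are from GENCODE, promoters from RefSeq (both GRCm38). The 9 genes and all lists were chosen with earlier results of these data known. All 9 members were named, and from each list the direct relative and the genes highest in SGC, up to 4. Names beyond these, which complete a count, were chosen after their values were seen. The 8 profile neighbours were those with the highest Pearson r to the mean standardized profile of the members, gate markers left out. Some listed genes that enter the counts are not reported here by name.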

Additional observations from a re-analysis of the deposited data

How the results depend on the processing

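Few cells limit most values: *Scn7a* glia came from 2 libraries, control replicate 1 had 92 SGC, and Schwann cells had at most 27 UMIs of any member. Alternatives were DESeq2, no filter on low counts, a stricter gate, all deposited barcodes, clusters in place of gates, leaving out each library, the replicate block, and, chosen after the data were seen, fibroblasts alone, each SGC cluster alone and SGC left out of the fit across types. No member was called for injury under any of them. The cause of the changes listed here was not tested.

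For injury in SGC, the 0 genes called higher became 1 with DESeq2, 11 without the filter, 11 with the replicate block, 2 in the *Hes5*-high cluster alone and 0 to 9 with 1 library left out (9 without injury replicate 2), and the 0 called lower became 2 without the filter and 0 to 13 with 1 library left out (13 without injury replicate 2). The injury values of the members changed sign with 1 library left out, ranging from -0.45 to 0.75 for *Rlbp1*, -0.78 to 1.56 for *Tyrp1*, -0.15 to 0.45 for *Mmd2*, -0.28 to 2.43 for *Mlc1*, -0.73 to 0.091 for *Bcan*, -0.16 to 0.43 for *Cdh19* and -0.84 to 0.78 for *P4ha3*. *Scg3* and *Cdh15* kept their sign. *Mmd2* was at -0.027 in *Hes5*-high and -0.0026 in *Hes5*-low cells, and *Tyrp1* at -0.72 in *Hes5*-low cells.

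In Schwann cells the 0 and 0 genes called higher and lower under injury became 0 and 1 with DESeq2, 4 and 14 without the filter, 1 and 5 with the replicate block, and 1 to 5 and 6 to 16 with 1 library left out. For pairing, samples with the same number deviated together (r = 0.311 in SGC and 0.443 in Schwann cells), but with 2 pairs they share only a number, and the replicate block called no member.

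Against the non-glial types the 1456 and 142 genes called in Schwann cells became 952 and 447 with DESeq2 (1 member called), 570 and 954 against fibroblasts alone, and 1016 to 1510 and 67 to 267 with 1 library left out (0 to 2 members, 0 without control replicate 1). Of the 3 members called with SGC in the fit, 1 was called without them, where the share of all genes called is not given here. The stricter gate gave 264 lower and the clusters 348. *Mmd2* in Schwann cells was at -1.15 against fibroblasts and ranged from -0.14 to 2.53 with 1 library left out. In *Scn7a* glia, 1030 and 52 became 415 and 509 against fibroblasts and 417 to 1047 and 22 to 56 with 1 library left out, with 83 lower under the stricter gate. Against Schwann cells, 268 and 226 became 78 to 242 and 76 to 210, with 144 lower under DESeq2. The 3 members stayed called in each of these. Where 1 library of *Scn7a* glia remained, it was assumed to vary like the other groups. For the library number, 42 and 32 became 5 and 6 with DESeq2, 3 and 1 with the stricter gate and 14 and 11 without the condition term. Leaving out 1 library there could not be fitted, as no residual degrees of freedom remain.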

Other observations

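The 724 cells in no gate also carried the members, with 165 CPM of *Mmd2*, 62.7 of *Cdh19*, 45.4 of *Bcan* and 37.9 of *Scg3* with the libraries pooled. The *Hes5*-low cluster held 137 of these ungated cells and 5 *Scn7a* glia beside its 621 SGC, and the *Hes5*-high cluster 8 and 0. Most *Scn7a* glia, 94 of 101, lay in another cluster, together with 41 SGC and 96 ungated cells.

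In macrophages the 9 genes summed to 158 CPM in control replicate 2, which had 80 such cells, and to at most 22.7 CPM in the other 3 libraries. *Mmd2* was at 61.7 CPM there, *Bcan* at 41.1, *Scg3* at 30.8 and *Cdh19* at 20.6, while *Rlbp1*, *Mlc1*, *Cdh15* and *P4ha3* had no UMI. The SGC markers summed to 466 CPM in the same macrophages, against 43.8, 93.1 and 180 CPM in the other 3 libraries. Markers common to all glia summed to 1127 CPM, against 112, 224 and 587 CPM. The source of these UMIs was not tested.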
